A study of Homo sapiens with 8 samples.

Results

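ADRA1A, F5, CD36, CORIN, LRRC70, SLCO2A1, ENTPD1 and KLF5 are 8 of the 18203 genes tested here, and were picked because their counts in oligodendrocyte progenitor cells (OPCs) stood well above VN on VNP2. The choice rested on the VN and VNP2 libraries themselves, so the difference between those substrates is described below without a p-value, and nothing is read from calls of these genes in that comparison. The cells derived from the established line H9, which is of human embryonic stem cell origin, and were kept for 2 days in OPC medium on a coated plate, without forced expression of SOX10. Matrigel is a basement membrane extract and served as the control, VN is recombinant full-length vitronectin, and VNP2 is an engineered vitronectin peptide carrying the RGD integrin-binding motif, fused to a mussel adhesive protein. Poly(A) RNA was sequenced in 2 Matrigel libraries (replicates 2 and 3), 3 VN libraries and 3 VNP2 libraries, all from the same line. The labels do not say whether replicates were separate cultures, so every p-value measures the spread between these libraries, which may be technical.

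The 8 genes belong to different systems and most encode proteins that act at the cell surface or outside the cell. ADRA1A encodes the alpha-1A adrenergic receptor, which signals through Gq, phospholipase C and calcium. CD36 is a scavenger receptor that binds long-chain fatty acids, oxidised lipoproteins and thrombospondin, and SLCO2A1 is the membrane carrier that takes up prostaglandins. ENTPD1 (CD39) removes phosphates from extracellular ATP and ADP, and CORIN is a transmembrane serine protease that cleaves the precursor of atrial natriuretic peptide. F5 encodes coagulation factor V, the cofactor with which factor Xa activates prothrombin. LRRC70 encodes a membrane protein with leucine-rich repeats. KLF5 is a zinc finger transcription factor of the Krüppel-like family, whose members bind GC-rich and CACCC sequences, and is the one nuclear protein among the 8.

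The depth was even, with between 37997896 and 39429453 estimated fragments per library. VN replicate 1 stood apart from the other VN libraries, with a median chi-square per gene of 2.25 and 2.62 against them, compared with 0.784 between VN replicates 2 and 3 and 0.455 for sampling noise alone. Beside the OPC label, OLIG2, NKX2-2 and other progenitor markers were present, with the summed level of the list at 430 to 447 CPM (counts scaled to the library's total) for Matrigel, 576 to 603 CPM for VN and 698 to 733 CPM for VNP2. SOX10, a defining factor of the oligodendrocyte lineage, had 20 fragments over all 8 libraries. Markers of the floor plate, the ventral midline of the neural tube, were abundant, and FOXA1, FOXA2 and SHH each had a mean normalized count (estimated fragments corrected for library size and average transcript length) between 1163 and 3107 on every substrate. The summed level of the floor plate list was 2138 to 2198 CPM for Matrigel, 2232 to 2254 CPM for VN and 2461 to 2579 CPM for VNP2. In bulk RNA, more cells of a type and more RNA per cell cannot be told apart.

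The sequences just upstream of 4 of the genes are shown as the stretches that precede annotated starts of their transcripts. They come from RefSeq (GRCh38.p14), each ends just before the first annotated exon in or after its window, and each is written 5′ to 3′ on the strand of its gene. RefSeq windows matched 6 of the 8 genes, and none was used for ADRA1A or SLCO2A1. Capitals mark a match, on either strand, to one of 6 motifs. The search used TATAAA for the classical core promoter box named after it, CCAAT for the box of that name and GGGCGG for sites of SP factors. It used CCACCC for the CACCC box of Krüppel-like factors, TGANTCA for sites of the AP-1 dimer and GGAATG for sites of TEAD factors. No matches overlap each other, and a match is a description of the letters, not of binding.
F5, chr1:169586589-169586731, minus strand: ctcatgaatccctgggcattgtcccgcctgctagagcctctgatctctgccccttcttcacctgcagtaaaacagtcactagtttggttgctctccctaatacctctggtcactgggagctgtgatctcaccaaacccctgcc
CORIN, chr4:47838107-47838317, minus strand: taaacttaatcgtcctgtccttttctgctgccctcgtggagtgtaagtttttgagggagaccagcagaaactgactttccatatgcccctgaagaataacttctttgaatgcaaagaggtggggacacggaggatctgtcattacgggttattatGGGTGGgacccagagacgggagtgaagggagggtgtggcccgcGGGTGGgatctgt
LRRC70, chr5:62578569-62578703, plus strand: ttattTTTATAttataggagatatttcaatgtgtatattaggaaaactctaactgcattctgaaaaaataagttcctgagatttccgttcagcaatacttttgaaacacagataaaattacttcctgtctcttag
CD36, upper window, chr7:80638266-80638515, plus strand: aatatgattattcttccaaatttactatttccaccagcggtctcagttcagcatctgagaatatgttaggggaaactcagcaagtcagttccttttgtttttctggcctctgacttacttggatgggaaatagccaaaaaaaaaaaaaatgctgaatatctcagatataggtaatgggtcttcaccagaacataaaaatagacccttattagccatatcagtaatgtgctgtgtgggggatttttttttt
CD36, lower window, chr7:80646196-80646328, plus strand: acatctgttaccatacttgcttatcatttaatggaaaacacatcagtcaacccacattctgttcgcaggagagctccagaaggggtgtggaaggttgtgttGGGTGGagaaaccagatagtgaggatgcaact
The F5 window adjoins the shared start of F5-201 and F5-202, and the CORIN window that of CORIN-205 and CORIN-203. The upper CD36 window adjoins the start of CD36-222, which had 4.35 fragments over all libraries, and CD36-214 starts a little further on, at base 80638676. The lower CD36 window adjoins the start of CD36-207. The LRRC70 window ends at an annotated exon of IPO11, a short way before LRRC70-201 starts at base 62578735. The CORIN window held 2 CACCC box matches, a motif found in 27.0% of all 35116 promoter windows trimmed to the same length. The LRRC70 window held 1 TATA box match, against 5.79% of windows of its length, and had a GC content of 28.1% where the median window had 56.3%. The lower CD36 window held 1 CACCC box match, against 16.8% of windows. None of the 6 motifs was found in the F5 window or in the upper CD36 window. No motif was thus common to all 5 printed windows. Some windows not printed also held matches. A CD36 window next to CD36-201 held 1 TATA box and 1 TEAD match, against 7.46% and 9.45% of windows. An ENTPD1 and a KLF5 window each held 1 TATA box match, against 10.7% of windows. No ENTPD1 transcript of the annotation used here starts close after that window. The KLF5 window adjoins the start of KLF5-205, which had 15.9% of the gene's fragments, where KLF5-201, starting further on, had 84.1%.

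Each of the 8 genes was higher in every VNP2 library than in any VN library. Of all tested genes, 12.7% showed that pattern. By edgeR's quasi-likelihood test at an adjusted p under 0.05, 7 of the 8 (all but ENTPD1) were called higher on VNP2, as were 3.09% of all tested genes, while 2.01% were called lower. The log2 fold changes from VN to VNP2 ran from 0.79 to 2.30 with a median of 1.48, where the median of all tested genes was 0.00086. The genes were picked for this difference, so these counts and values follow from the choice and are not a result about the genes. Ordered by this difference, the genes held places 21 to 332 of 18203, so they were among the large rises without being the largest ones. The rule set no threshold, so no gene stands just inside or just outside one.

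**Figure D1:**
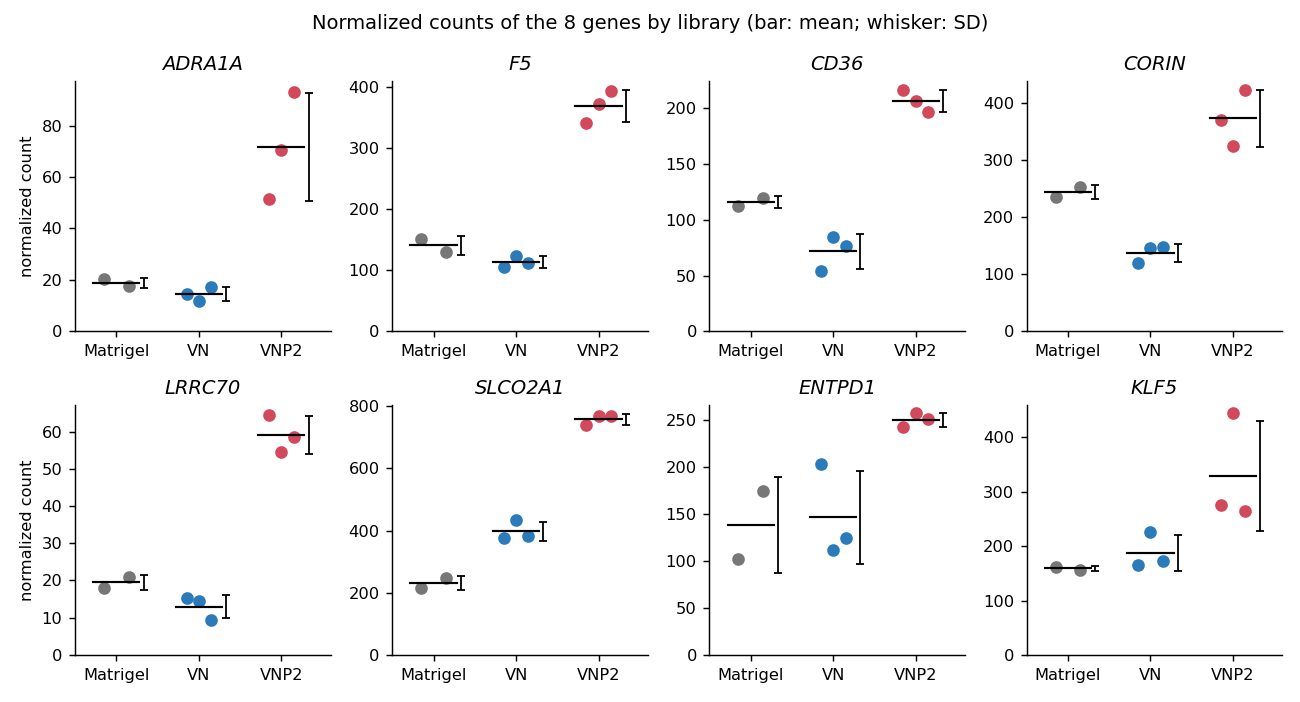
Normalized counts (linear axis from 0) of each gene in the 2 Matrigel, 3 VN and 3 VNP2 libraries, 1 point per library, with the group mean as a bar and the SD as a whisker. In every panel the VNP2 points lie above all others, and the VN points lie below the Matrigel points for ADRA1A, F5, CD36, CORIN and LRRC70.

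ADRA1A (ENSG00000120907, chromosome 8, 26748150 to 26867273, minus strand, GRCh38) was the lowest of the genes per length on every substrate, and had the greatest fold. Its normalized counts were 20.3 and 17.5 (Matrigel), 14.6, 11.8 and 17.0 (VN), and 51.6, 70.4 and 93.3 (VNP2). The VNP2 libraries did not overlap any other library, but they also spread widely among themselves, with a mean of 71.7 ± 20.9 (SD, n = 3) against 14.5 ± 2.62 (SD, n = 3) on VN. The log2 fold change was 2.30 (SE 0.282), a 4.91-fold higher level. The counts behind it were small, between 12 and 18 fragments per VN library and 52 and 94 per VNP2 library. In TPM, Salmon's measure of level per unit of transcript length, the gene went from 0.280 ± 0.051 on VN to 1.37 ± 0.405 on VNP2 (SD, n = 3 each).

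The transcripts of ADRA1A did not keep the same shares. The coding transcript ADRA1A-204 held the greatest share, with estimated counts of 12.8 and 7.43 (Matrigel), 3.79, 6.08 and 10.8 (VN), and 25.9, 32.3 and 42.3 (VNP2). ADRA1A-205, also coding, received 4.89, 10.6 and 15.7 on VNP2 and 0 in all 5 other libraries. By counting error alone, a count of 0 allows up to 3 fragments per library. The transcript ADRA1A-211, annotated as a target of nonsense-mediated decay, went the other way, with 1.71 and 4.94 (Matrigel), 4.24, 3.09 and 4.74 (VN), and 0 in the 3 VNP2 libraries. ADRA1A-205 and ADRA1A-211 have the same annotated start and end, so fragments of either may have been assigned to the other. The bound of 3 does not cover this. At so few fragments the division among overlapping transcripts is an estimate of Salmon rather than a count, and the shares were not tested.

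CD36 (ENSG00000135218, chromosome 7, 80369575 to 80679277, plus strand) had normalized counts of 112 and 120 (Matrigel), 54.2, 84.3 and 76.6 (VN), and 216, 207 and 196 (VNP2). The 3 groups did not overlap, and the lowest value came from VN replicate 1. The means were 71.7 ± 15.7 on VN and 206 ± 9.98 on VNP2 (SD, n = 3 each), a log2 fold change of 1.53 (SE 0.159). In TPM the gene stood at 3.09, 2.02 and 5.75 on Matrigel, VN and VNP2.

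A sizeable part of this difference for CD36 came from the length assigned to its transcripts. Normalization for length divides by the average length of the transcripts in use, which was 2010, 1968 and 2011 bases in the VN libraries and 1324, 1379 and 1401 bases in the VNP2 libraries. The fragments themselves numbered 69, 105 and 96 on VN and 182, 179 and 175 on VNP2, and without the length correction the log2 fold change was 0.97. The transcript CD36-207 took 63.3, 62.9 and 67.0 fragments on VNP2, but 0, 0 and 21.6 on VN and 37.8 and 25.4 on Matrigel. CD36-214, the most used transcript, took 62.4, 75.3 and 79.7 on VNP2, 29.2, 38.3 and 47.4 on VN, and 35.4 and 29.7 on Matrigel. CD36-209, which begins far upstream at base 80369575, did not follow, with 26.5, 12.6 and 2.81 on VNP2, 16.9, 39.7 and 17.1 on VN, and 16.1 and 28.8 on Matrigel. CD36-206, a short transcript that starts between these at base 80626156, had 13, 13.7 and 15 on VNP2, 0, 0 and 1.49 on VN, and 3.44 and 0 on Matrigel. Where CD36-207 had 0, other overlapping coding transcripts took fragments. CD36-204 had 16.3 in VN replicate 1 and CD36-201 had 15.5 in VN replicate 2, and they had 4.65 and 6.06 in VNP2 replicate 3. The division among overlapping transcripts is an estimate of Salmon, and the transcripts were not tested. By these estimates, the transcripts with more fragments on VNP2 started at several places downstream of CD36-209.

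**Figure D2:**
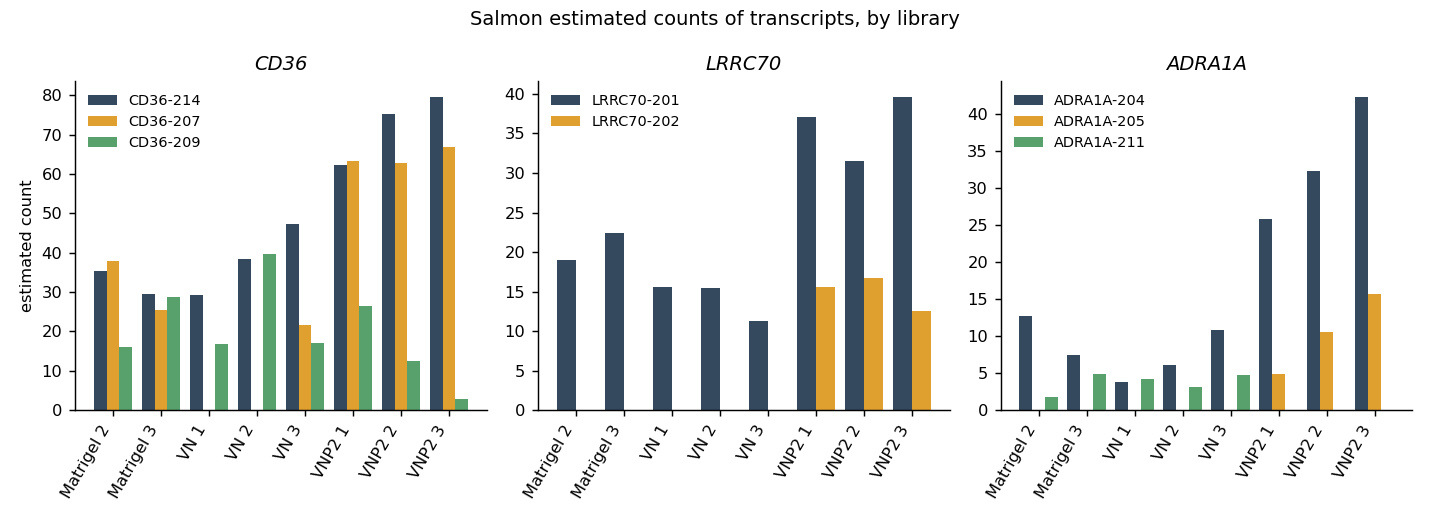
Salmon's estimated counts (linear axis from 0) for transcripts of CD36, LRRC70 and ADRA1A in each of the 8 libraries. CD36-214 and CD36-207 are highest on VNP2 while CD36-209 is not, and LRRC70-202 and ADRA1A-205 have counts in the 3 VNP2 libraries alone.

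SLCO2A1 (ENSG00000174640, chromosome 3, 133928145 to 134052184, minus strand) was the most abundant of the genes per length. Its normalized counts were 215 and 247 (Matrigel), 376, 433 and 383 (VN), and 739, 768 and 770 (VNP2). The levels climbed in steps from Matrigel to VN to VNP2 with no overlap, and VNP2 stood at 759 ± 17.6 against 397 ± 31.1 on VN (SD, n = 3 each). The log2 fold change from VN to VNP2 was 0.94 (SE 0.0775), and in TPM the means were 3.38, 6.15 and 11.6 on Matrigel, VN and VNP2. The coding transcripts were both higher, SLCO2A1-201 with 440, 443 and 446 fragments on VNP2 against 213, 182 and 212 on VN, and SLCO2A1-209 with 213, 211 and 223 against 96.7, 102 and 105.

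ENTPD1 (ENSG00000138185, chromosome 10, 95711779 to 95869695, plus strand) had normalized counts of 102 and 174 (Matrigel), 203, 111 and 125 (VN), and 243, 258 and 251 (VNP2). The VNP2 libraries were close to each other (250 ± 7.38, SD, n = 3) and above all others, whereas Matrigel and VN each spread widely and overlapped. The log2 fold change from VN to VNP2 was 0.80 (SE 0.229). The value became 1.08 without VN replicate 1, whose average transcript length was 2663 bases where the other VN libraries had 4288 and 3969. In that library ENTPD1-210 received 25.6 fragments, and 0 in the other 7. The gene's fragments before length correction were more even, with 153, 135 and 138 on VN and 250, 230 and 263 on VNP2. ENTPD1 is overlapped by the antisense gene ENTPD1-AS1, whose mean normalized count was 30.4, 27.0 and 22.7 over the Matrigel, VN and VNP2 libraries, and which was not called between VN and VNP2 (edgeR adjusted p = 0.854).

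CORIN (ENSG00000145244, chromosome 4, 47593998 to 47838106, minus strand) had normalized counts of 235 and 252 (Matrigel), 119, 145 and 147 (VN), and 370, 324 and 423 (VNP2). The 3 groups were fully apart, VN lowest and VNP2 highest. The log2 fold change from VN to VNP2 was 1.44 (SE 0.125), from 137 ± 15.6 to 372 ± 49.2 (SD, n = 3 each). The main transcript CORIN-201 followed the gene, with 82.8, 93.4 and 104 fragments on VN and 237, 262 and 333 on VNP2. CORIN is itself a known marker of the floor plate. Of the 7 floor plate markers tested, FOXA1 and NTN1 were called higher on VNP2 than on VN and 0 lower, where 3.09% and 2.01% of all tested genes were called. They rose by 0.23 and 0.57 on the log2 scale (edgeR adjusted p = 0.0125 and 1.36e-05), and the median of the list was 0.069. From Matrigel to VN, where CORIN fell by 0.83, 1 marker was called higher and 2 lower, and the summed level went from 2138 to 2198 CPM to 2232 to 2254 CPM. LMX1A and FERD3L, other floor plate genes, had 7 and 12 fragments over all libraries. The part of the floor plate cells in the difference for CORIN was not tested.

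F5 (ENSG00000198734, chromosome 1, 169514166 to 169586588, minus strand) had normalized counts of 151 and 129 (Matrigel), 106, 124 and 111 (VN), and 340, 371 and 393 (VNP2). VNP2 was far above both other substrates, which lay close together without overlapping. The log2 fold change from VN to VNP2 was 1.70 (SE 0.111), from 113 ± 9.27 to 368 ± 26.4 (SD, n = 3 each). Both long coding transcripts took part: F5-201 had 88.0, 84.6 and 93.6 fragments on VN and 239, 258 and 283 on VNP2, and F5-202 had 15, 41.4 and 13.4 against 103, 115 and 110. Both start at the same base, next to the F5 sequence printed above. Per length F5 was low, at 0.627 ± 0.059 TPM on VN and 2.01 ± 0.151 TPM on VNP2.

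LRRC70 (ENSG00000186105, chromosome 5, 62578735 to 62581448, plus strand) had normalized counts of 18.0 and 20.9 (Matrigel), 15.3, 14.4 and 9.36 (VN), and 64.5, 54.5 and 58.5 (VNP2). The VNP2 libraries were close together at 59.1 ± 5.03 and well apart from VN at 13 ± 3.18 (SD, n = 3 each), a log2 fold change of 2.18 (SE 0.251). LRRC70-201, the coding transcript, had 15.6, 15.5 and 11.3 fragments on VN and 37.1, 31.5 and 39.6 on VNP2. LRRC70-202, a transcript without a coding frame, had 15.6, 16.7 and 12.5 fragments on VNP2 and 0 in the 5 other libraries. LRRC70 lies inside IPO11, an importin gene on the same strand, so a fragment of unspliced IPO11 RNA and one of LRRC70 cannot be told apart by strand. The mean normalized count of IPO11 was 1975 for Matrigel, 1935 for VN and 2117 for VNP2, and it was not called between VN and VNP2 (edgeR adjusted p = 0.202).

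KLF5 (ENSG00000102554, chromosome 13, 73054976 to 73077542, plus strand) had normalized counts of 162 and 156 (Matrigel), 165, 225 and 173 (VN), and 275, 446 and 265 (VNP2). All VNP2 libraries were above all VN libraries, but VNP2 replicate 2 was far above the other two. Much of that height came with 1 fragment assigned to KLF5-202, a transcript of 130 bases, which made up 2.77 of the gene's 8.86 TPM and cut the gene's average length to 1607 bases where the other VNP2 libraries had 2307 and 2351. The fragments of the whole gene were 288, 321 and 283 on VNP2 and 167, 243 and 191 on VN. The log2 fold change was 0.79 (SE 0.197) with the length correction, 0.55 without it, and 0.52 with VNP2 replicate 2 left out.

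**Figure D3:**
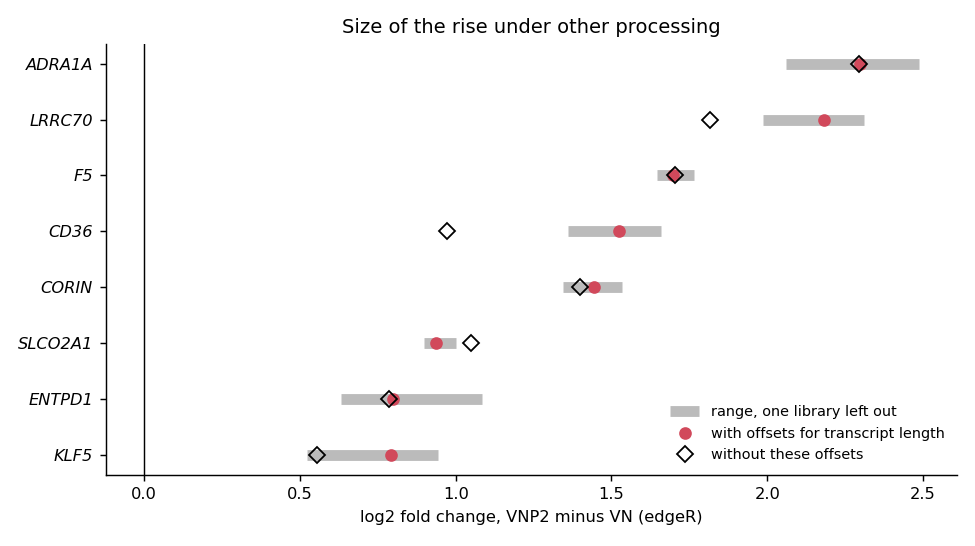
Log2 fold change from VN to VNP2 of each gene with offsets for average transcript length (filled circle), without them (open diamond), and its range when each library was left out in turn (grey bar). The diamond sits well below the circle for CD36 (0.97 against 1.53), LRRC70 (1.81 against 2.18) and KLF5 (0.55 against 0.79), and above it for SLCO2A1 (1.05 against 0.94).

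The Matrigel libraries took no part in the choice of the genes, although each comparison with them shares either the VN or the VNP2 libraries that did, so those values are given as a description too. Between VN and Matrigel, 2 of the 8 genes were called lower and 1 higher, where 9.64% and 5.66% of all tested genes were called in those directions (15.3% in all). The libraries of these substrates did not overlap for 7 of the 8 genes and for 44.4% of all tested genes. CORIN was lower on VN by 0.83 on the log2 scale (SE 0.140) and CD36 by 0.69 (SE 0.182), and SLCO2A1 was higher by 0.78 (SE 0.0953). The value for CD36 dropped to 0.21 below Matrigel without the length correction and was then not called, nor was it called without either Matrigel library or without VN replicate 3. ADRA1A, F5 and LRRC70 had log2 values of −0.38, −0.31 and −0.58, ENTPD1 and KLF5 of 0.06 and 0.24, and none of these 5 was called. The median of the 8 was −0.34, against 0.0033 over all tested genes.

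Between VNP2 and Matrigel all 8 genes were called higher and none overlapped, where 7.43% of all tested genes were called higher and 22.9% were higher without overlap. The log2 values were 1.91 (SE 0.313) for ADRA1A, 1.72 (SE 0.0936) for SLCO2A1, 1.60 (SE 0.275) for LRRC70, 1.39 (SE 0.124) for F5, 1.03 (SE 0.228) for KLF5, 0.86 (SE 0.260) for ENTPD1, 0.83 (SE 0.178) for CD36 and 0.61 (SE 0.134) for CORIN. The value for ENTPD1 became 0.53 without Matrigel replicate 2 and 1.29 without Matrigel replicate 3, and its call was lost in the former case and without VN replicate 3 or any 1 VNP2 library. CD36, CORIN and KLF5 lost theirs without either Matrigel library. By point value with the length correction, CORIN and CD36 had both the smallest excess on VNP2 over Matrigel and the greatest deficit on VN. Without that correction the deficit on VN was still greatest for CORIN (−0.88). For CD36 it was then −0.21, smaller than for LRRC70 (−0.55), ADRA1A (−0.47) and F5 (−0.38).

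By the order of their group means, the 8 genes fell into 2 patterns over the substrates. ADRA1A, F5, LRRC70, ENTPD1 and KLF5 were not called between VN and Matrigel, so for them this order is a description of the means. ADRA1A, F5, CD36, CORIN and LRRC70 had their lowest mean on VN, a middle one on Matrigel and the highest on VNP2, an order that 11.6% of all tested genes and 45.8% of the 563 genes called higher on VNP2 than on VN had. SLCO2A1, ENTPD1 and KLF5 had their lowest mean on Matrigel. In ENTPD1 the Matrigel and VN levels did not differ beyond their spread (138 ± 50.9, n = 2, and 146 ± 49.4, n = 3, SD), and in KLF5 they lay at 159 ± 3.85 and 188 ± 32.7.

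**Figure D4:**
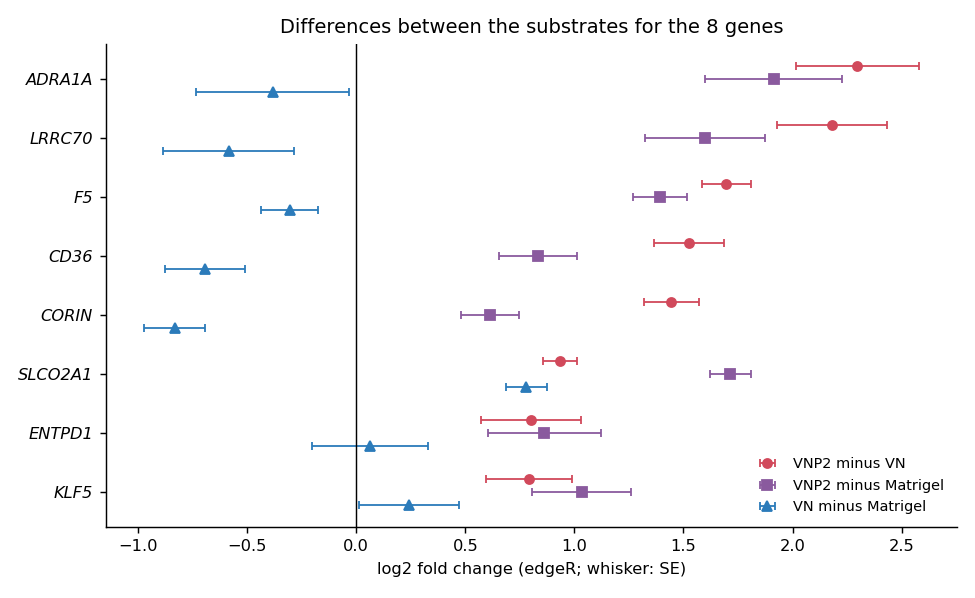
Log2 fold changes of the 8 genes with their standard errors, for VNP2 minus VN (circles), VNP2 minus Matrigel (squares) and VN minus Matrigel (triangles). The first 2 differences are above 0 for all 8 genes, and the third is below 0 for ADRA1A, LRRC70, F5, CD36 and CORIN and above 0 for SLCO2A1, ENTPD1 and KLF5.

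The other genes of these pathways were examined in 8 lists of 223 genes chosen by function, of which 163 were tested. Of these, 12 were called higher and 5 lower on VNP2 than on VN, against 5.1% of all tested genes called in either direction, and their median log2 fold change was 0.053. The greatest called value among them, 0.80, was near the lowest of the 8 genes themselves. Calls of TFPI, TFPI2, FABP7, THBS1, LRRTM3, LINGO1, LRIG3 and SLITRK3 held with each library left out, and the other 9 did not. The number called was 10 without VN replicate 2, VN replicate 3 or VNP2 replicate 3, and 11 without VNP2 replicate 1. Between VN and Matrigel 13 of the 163 were called higher and 29 lower, where 5.66% and 9.64% of all tested genes were called, and between VNP2 and Matrigel 20 and 23, where 7.43% and 9.15% of all tested genes were called (16.6% in all).

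Around ADRA1A, no gene of 12 tested adrenergic receptors and Gq pathway genes was called between VN and VNP2 by edgeR, none had an unadjusted p under 0.05, and DESeq2 called none. The sister receptors ADRA1B and ADRA1D had 58 and 26 fragments over all libraries and were not tested. Around CORIN, 12 natriuretic peptide and transmembrane protease genes gave the same counts of 0. CORIN's own substrate NPPA had 1 fragment over all 8 libraries. NPPB, which encodes the related brain natriuretic peptide, had normalized counts of 255 and 255 on Matrigel, 26.4 to 30.8 on VN, and 22.6 to 39.6 on VNP2, and was lower on VN than on Matrigel by 3.13 on the log2 scale (SE 0.205, edgeR adjusted p = 5.06e-06). Around ENTPD1, edgeR and DESeq2 called none of 25 tested genes of extracellular nucleotides and adenosine, and 6 had an unadjusted p under 0.05.

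Around F5, TFPI and TFPI2 were called in opposite directions among 18 tested coagulation genes. TFPI, the inhibitor of factor Xa and tissue factor, had 373, 406 and 319 normalized counts on VN and 586, 572 and 539 on VNP2, a log2 fold change of 0.63 (SE 0.0901, edgeR adjusted p = 0.00264). On Matrigel TFPI was at 566 and 604, close to VNP2, so VN was its low substrate. F5 was instead far higher on VNP2 than on both VN and Matrigel, between which it was not called. TFPI2, an inhibitor of plasmin and other serine proteases, fell by 0.49 on the log2 scale from VN to VNP2 (SE 0.0635, edgeR adjusted p = 0.00145). Prothrombin (F2) and protein C (PROC), with which factor V works in plasma, had 14 and 9 fragments over all libraries.

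Around CD36, 3 of 26 tested genes of scavenger receptors and fatty acid handling were called higher on VNP2 than on VN and 2 lower. Of all tested genes, 3.09% and 2.01% were called in those directions. FABP7, the fatty acid binding protein of radial glia, rose by 0.39 (SE 0.0534), LPL, the lipoprotein lipase, by 0.40 (SE 0.0826) and ACSL4, an acyl-CoA synthetase, by 0.21 (SE 0.0520), with edgeR adjusted p = 0.0021, 0.0201 and 0.0479. ACSL1 fell by 0.30 (SE 0.0705, adjusted p = 0.0372). THBS1, which encodes thrombospondin-1, a ligand of CD36, had normalized counts of 13706 and 13696 (Matrigel), 7067, 6134 and 6457 (VN), and 5157, 5133 and 5098 (VNP2). It thus fell by 0.35 from VN to VNP2 (SE 0.0468, edgeR adjusted p = 0.00167), while the counts of its receptor were highest on VNP2.

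Around LRRC70, 5 of 32 tested genes of neuronal leucine-rich repeat membrane proteins were called higher on VNP2 than on VN and 2 lower. Of all tested genes, 3.09% and 2.01% were called in those directions. More of this list was called against Matrigel, 9 higher and 3 lower on VN, where 5.66% and 9.64% of all tested genes were called. On VNP2 against Matrigel 11 were higher and 3 lower, where 7.43% and 9.15% were called. LRRTM3, a synaptic adhesion protein, had normalized counts of 65.0 and 47.3 (Matrigel), 133, 124 and 126 (VN), and 241, 215 and 212 (VNP2), and rose by 0.80 (SE 0.127, edgeR adjusted p = 0.00482). LINGO1, a co-receptor known to restrain oligodendrocyte differentiation, rose by 0.47 (SE 0.0568, adjusted p = 0.000886). LRRN3, SLITRK2 and ELFN1 rose by 0.41, 0.30 and 0.29 (edgeR adjusted p = 0.0459, 0.0122 and 0.016), and SLITRK3 and LRIG3 fell by 0.41 and 0.31 (0.00495 and 0.0064). Around SLCO2A1, the related carrier SLCO3A1 rose by 0.30 (adjusted p = 0.0246) and the prostaglandin E synthase PTGES2 by 0.21 (adjusted p = 0.0367) among 19 tested genes. PTGS2, the inducible cyclooxygenase, had 21 fragments over all libraries. Around KLF5, KLF3 rose by 0.19 (edgeR adjusted p = 0.0236) and none of the other 18 tested KLF and SP factors was called.

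**Figure D5:**
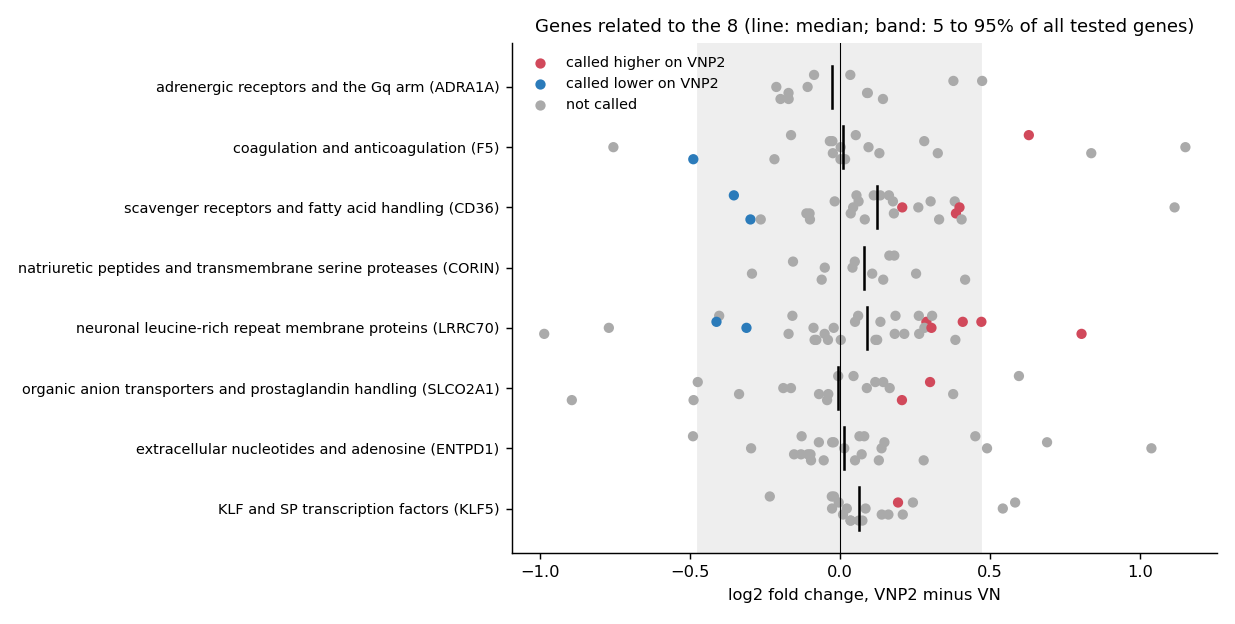
Log2 fold change from VN to VNP2 of the 163 tested genes in the 8 functional lists, 1 point per gene, with each list's median as a line and the range of 5 to 95% of all tested genes (−0.47 to 0.47) as a band. List medians lie between −0.03 and 0.12, red points are the 12 genes called higher and blue points the 5 called lower.

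The neighbours of the 8 genes on the chromosome were also examined, taking the 2 nearest protein-coding genes on each side and any overlapping gene. Of 45 such genes 34 were tested, and 6 were called higher and 1 lower on VNP2 than on VN, where 3.09% and 2.01% of all tested genes were called, and the median log2 fold change was 0.024. SELP, the gene of P-selectin, lies on the strand of F5 with its 3′ end 2261 bases away, and had 5.06, 11.2 and 12 normalized counts on VN and 28.9, 36.7 and 30.4 on VNP2, a log2 fold change of 1.80 (SE 0.373, edgeR adjusted p = 0.0202). On Matrigel SELP was at 19.8 and 10.1, within reach of VN. Beside CD36, GNAI1, an inhibitory G protein subunit, rose by 0.53 (SE 0.0455, adjusted p = 0.000113) and SEMA3C, a secreted semaphorin, fell by 0.65 (SE 0.0796, adjusted p = 0.000936). RAB6B and SRPRB beside SLCO2A1 rose by 0.35 and 0.33, TBC1D4 beside KLF5 by 0.48 and STMN4 beside ADRA1A by 0.25 (adjusted p = 0.0135, 0.00693, 0.000972 and 0.0241). The calls of GNAI1, SEMA3C, SRPRB and TBC1D4 held with each library left out, and 4 genes in all were called without VNP2 replicate 3. No tested neighbour of CORIN, LRRC70 or ENTPD1 was called.

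Several of the 8 genes are well known from other cell types, and the markers of those types were set beside them. For every marker list below, the shares of all tested genes called on VNP2 against VN were 3.09% higher and 2.01% lower. CD36 and ENTPD1 are expressed by endothelial, platelet or myeloid cells, as is SELP, the neighbour of F5. No endothelial marker of 8 tested was called between VN and VNP2 by edgeR or DESeq2, 1 had an unadjusted p under 0.05, and their summed level was between 43.1 and 44.4 CPM on VN and 43.0 and 43.6 CPM on VNP2. KDR, the most abundant of them, was at 1168 normalized counts on VN and 1195 on VNP2, and PECAM1 had 36 fragments over all 8 libraries. Of 8 markers of microglia and blood, CD14 alone was tested and not called, and SPI1, TYROBP and ITGAM had 2, 3 and 3 fragments over all libraries. KLF5 is widely expressed in epithelia, and of 7 tested epithelial markers KRT8 was called higher on VNP2 while CDH1, ESRP1 and CLDN6 were called lower, with a summed level of 98 to 111 CPM on VN and 110 to 118 CPM on VNP2. The part of epithelial cells in the difference for KLF5 was not tested. Of the other marker lists, neural crest (8 tested) had 2 genes called higher and 1 lower on VNP2 than on VN, and mesenchymal (8 tested) and neuron (8 tested) had 1 each way. Pluripotency (6 tested) had 3 lower, with a summed level of 127 to 129 CPM on VN and 113 to 120 CPM on VNP2. Choroid plexus (3 tested) had none by edgeR or DESeq2, and none with an unadjusted p under 0.05.

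The genes whose profile was most like each of the 8 were found by Pearson's r of log2 normalized counts over the 8 libraries, among the 12990 genes whose mean normalized count reached 100. These libraries hold 3 groups, so a high r mainly reflects a like order of the groups, and it is given without a p. For ADRA1A the closest were EFCAB1 (r = 0.986) and ID1 (0.979), for F5 SPEF1 and VAV3 (0.989 each), and for LRRC70 ZMYND10 (0.992) and DTX1 (0.989). CD36 and CORIN shared CNTNAP3 as their closest gene (r = 0.984 and 0.983), followed by CNTNAP3P2 (0.981) for CD36 and SLIT3 (0.979) for CORIN. CNTNAP3 and CNTNAP3P2 are near-identical copies, between which fragments may be divided uncertainly. For SLCO2A1, with its 3 steps, they were PTPRG (r = 0.996) and POU3F4 (0.995). ENTPD1 and KLF5 reached lower values, with LINC01670 (0.966) and DMWD (0.965) for ENTPD1 and C17orf80 and LANCL2 (0.962 each) for KLF5. The number of genes above r = 0.9 ran from 42 for KLF5 and 51 for ENTPD1 to 359 for SLCO2A1.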

How the data were processed

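RNA-seq of 8 libraries from H9-derived OPCs was used. The authors trimmed reads with Trim Galore, ran Salmon on GENCODE 32 transcripts and imported the estimates into DESeq2 1.27.12 with tximport. They deposited estimated counts per transcript, which are not whole and not normalized, and TPM values per transcript, used here for transcript length weights. The authors also deposited a signal per gene, the counts divided by normalization factors, used for 1 alternative. The 8 genes and all lists were chosen with earlier results of these data known.

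Transcripts were joined by identifier to GENCODE 29 (GRCh38), which matched 205225 of 226608 and 98.8 to 98.9% of each library's counts. Estimated counts were summed per gene, rounded, filtered with filterByExpr (minimum count 10, total 15) and fitted in edgeR 4.0.16 (R 4.3.3) with TMM, offsets for average transcript length and all 8 libraries, leaving 18203 genes. Tests were two-sided with Benjamini-Hochberg adjustment, and an adjusted p under 0.05 made a call. Bounds given for a count of 0 cover counting error only. The stranded kit separates antisense genes only if the counting used strand, which is not given in the sources used here.

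A gene of the floor plate list is not reported here and was left out of its counts and sums. Named are the 8 genes, every related gene called between VN and VNP2, tested neighbours, the most abundant markers, and the 2 genes with the most similar profile. Other list genes (NPPA, NPPB, those too low to test, and markers beyond the most abundant) were named after their values were seen. Alternatives were DESeq2 1.42.0, RLE normalization, no length offsets, no filter, a replicate block, the pair's libraries alone, limma 3.58.1 on the authors' normalized counts (pseudocount 1), and each library left out. The fit was run on simulated data of 18203 genes for VNP2 against VN. There, 200 of 200 genes changed by a fold of 2 were called, with 9 unchanged ones. The changed genes were drawn only from those with a mean normalized count above 100. All genes were simulated with the same spread between libraries and the same transcript length. Genes with a wider spread were thus not tried. The fit's performance at few counts, as in ADRA1A and LRRC70, or at shifting transcript lengths, as in CD36, was not tested.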

Additional observations from a re-analysis of the deposited data

How the results depend on the processing

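The median log2 fold change of the 8 genes from VN to VNP2 was 1.48, and 1.22 with no length offsets, where the average transcript length no longer enters. It ran from 1.36 to 1.57 with 1 library left out. CD36 was called lower on VN than on Matrigel in 10 of 16 settings. Between VNP2 and Matrigel, CD36, CORIN and KLF5 were called in 14 settings and ENTPD1 in 10.

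Leaving out 1 library moved the number of genes called between VNP2 and VN from 929 to between 548 and 1997, 1997 without VN replicate 1, and 582, 578, 548 and 552 without VN replicates 2 and 3 and VNP2 replicates 1 and 3. Between VN and Matrigel it moved from 2785 to between 1189 and 3904 (1228 and 1189 without Matrigel replicates 2 and 3), and between VNP2 and Matrigel from 3019 to between 1609 and 3612 (1637 and 1609 without those libraries). Among related genes it moved from 17 to between 10 and 24, and among neighbours from 7 to between 4 and 8. With no filter on low counts 1304 genes were called between VNP2 and VN. Deviations from the group means were hardly correlated between libraries with the same replicate number (r from −0.051 to 0.026), so no pairing by number was seen or assumed. Whether libraries with the same number shared a batch is not settled by this. A replicate block gave more calls, 1146 between VNP2 and VN and 3391 between VN and Matrigel. Genes below about 100 counts, such as ADRA1A and LRRC70, have wide errors at this depth.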

Other observations

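Among the genes related to the 8, some of the differences were between Matrigel and both vitronectin substrates. These genes were chosen after their values were seen, and the p-values are edgeR's, adjusted over all tested genes, for VN against Matrigel. F2RL1, a protease-activated receptor, had normalized counts of 807 and 929 on Matrigel and between 287 and 383 over the VN libraries, and was lower on VN by 1.37 on the log2 scale (adjusted p = 0.000128), with 270 to 360 over the VNP2 libraries. ENPP2, the gene of autotaxin, which makes lysophosphatidic acid and is known from oligodendrocyte progenitors, fell by 0.47 (adjusted p = 2.59e-05). ADRA2A, an adrenergic receptor coupled to Gi, fell by 1.05 (adjusted p = 0.0243), from a mean of 70.2 to 34.0 normalized counts. PTGER3, a receptor for prostaglandin E2, went the other way, with 173 and 181 on Matrigel and 335 to 380 over the VN libraries, a rise of the mean from 177 to 354 (adjusted p = 7.51e-05). None of these was called between VN and VNP2, with log2 differences of −0.16 for F2RL1, −0.03 for ENPP2, −0.20 for ADRA2A and −0.16 for PTGER3.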
